A study of Mus musculus with 8 samples.

Results

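The 9 transcription factors that mark the pallium and its glutamatergic lineage followed here across sorted cell pools were Neurog2, Eomes, Neurod1, Neurod2, Neurod6, Tbr1, Fezf2, Emx1 and Lhx2. They were chosen by name, with earlier results of these data known, and are 9 of the 32543 genes in the deposited tables. All 9 passed the filter on low counts that left 14157 genes to test. Their level in each pool served as a measure of pallial glutamatergic cells in the sort.

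The pools came from mouse embryos at E16.5. Knockout pools were Tshz1 GFP/RA (4 libraries) and control pools were Tshz1 GFP/+ (4 libraries), so both genotypes carried the GFP allele at the Tshz1 locus, on an outbred background. Tissue around the amygdala was cut from thick coronal slices, embryos of 1 genotype were pooled, and GFP-expressing cells were collected by fluorescence-activated sorting as intercalated cells, the clustered GABAergic neurons between the nuclei of the amygdala. The library titles start with 1 of 4 letter pairs (NX, NY, QT, RM), each shared by 1 knockout and 1 control library. The labels do not say what the pairs stand for, nor how many embryos went into a pool, so the p-values speak only for variation among these pools. The series text speaks of triplicates, whereas 4 libraries per genotype were labelled and all were used.

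Summed expected counts ran between 6384571 and 13295690 in knockout libraries and between 5785612 and 14535867 in control libraries. In Tshz1, the targeted gene, the level was 12.8 to 56.5 TPM (RSEM's measure of level per transcript length) in knockout libraries, against 85.4 to 217 TPM in control libraries, with no overlap. The GABAergic marker Gad2 lay at 220 to 643 TPM in knockout libraries and 339 to 707 TPM in control libraries. The knockout libraries thus matched their labels, and both genotypes carried strong GABAergic markers. Foxp2 and Meis2, which mark intercalated cells, lay at 43.1 to 206 and 379.8 to 728 TPM in knockout libraries and at 92.3 to 351 and 581 to 1051 TPM in control libraries. EGFP, the sort marker, had 32.7 to 219 TPM in knockout libraries and 94.8 to 269 TPM in control libraries.

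The pallium, the dorsal part of the embryonic telencephalon, makes glutamatergic neurons, whereas the subpallium makes GABAergic neurons, the intercalated cells among them. In the pallial lineage the proneural factor Neurog2 acts in progenitors, Eomes (Tbr2) marks intermediate progenitors, Neurod1 follows in late progenitors and newborn neurons, and Neurod2, Neurod6 and Tbr1 mark postmitotic neurons. Emx1 and Lhx2 are homeobox genes of pallial progenitors, and Fezf2 specifies deep-layer projection neurons of the cortex. The amygdala holds pallial glutamatergic nuclei next to the intercalated clusters. Lhx2 and Fezf2 are also used elsewhere in the developing forebrain, so they mark the pallium less strictly than Tbr1 or Emx1.

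In GRCm38 with GENCODE M21 annotation, Neurog2 spans chr3:127633135-127635631 on the plus strand and Eomes spans chr9:118478212-118486132 on the plus strand. Neurod1 spans chr2:79452521-79456751, Neurod2 spans chr11:98325415-98329648 and Neurod6 spans chr6:55677822-55681263, all on the minus strand. Tbr1 spans chr2:61802930-61814114 on the plus strand and Fezf2 spans chr14:12342094-12348189 on the minus strand. Emx1 spans chr6:85187438-85204462 and Lhx2 spans chr2:38339281-38369733, both on the plus strand. All are protein coding. Exons of Eomes overlap an antisense RNA, Gm33460, over 118 bases, and exons of Neurod1 overlap Cerkl on the same strand over 201 bases and Gm26755 on the other strand over 154 bases. The labels state no stranded counting, so reads in these overlaps could not be told apart. Neurod2 carried fractional expected counts in all 8 libraries, so some of its fragments were shared with other rows and its level is uncertain by that share.

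The 250 bases before the RefSeq transcription start (GRCm38.p6, 5′ to 3′ on the gene's strand) are shown for Eomes, Tbr1, Neurod6 and Neurod2. Eomes, Tbr1 and Neurod6 were chosen because the ratios of Eomes to Tbr1 and to Neurod6 did not overlap between genotypes. Those ratios were picked after their values were seen and were not tested. Neurod2 is the other late factor. Capitals mark every match to the motifs searched on both strands. These were CAGATG and CAGCTG, the E-boxes bound by Neurog and Neurod factors, GGTGTGA, the T-box half-site bound by Tbr1 and Eomes, and TAATTA, the homeodomain core bound by Lhx2 and Emx1. No match overlapped a match to another motif. The windows lie at chr9:118477939-118478188 on the plus strand for Eomes, chr2:61804203-61804452 on the plus strand for Tbr1, chr6:55681264-55681513 on the minus strand for Neurod6 and chr11:98329646-98329895 on the minus strand for Neurod2.
Eomes: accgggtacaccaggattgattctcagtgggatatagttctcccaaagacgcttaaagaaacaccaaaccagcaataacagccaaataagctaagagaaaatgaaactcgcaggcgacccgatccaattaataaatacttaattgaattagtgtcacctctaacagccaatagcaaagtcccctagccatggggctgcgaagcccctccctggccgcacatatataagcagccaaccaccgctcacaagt
Tbr1: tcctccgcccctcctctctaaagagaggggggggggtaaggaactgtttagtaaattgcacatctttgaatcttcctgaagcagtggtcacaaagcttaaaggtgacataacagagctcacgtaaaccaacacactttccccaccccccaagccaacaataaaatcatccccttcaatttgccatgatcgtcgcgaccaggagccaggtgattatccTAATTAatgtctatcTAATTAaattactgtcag
Neurod6: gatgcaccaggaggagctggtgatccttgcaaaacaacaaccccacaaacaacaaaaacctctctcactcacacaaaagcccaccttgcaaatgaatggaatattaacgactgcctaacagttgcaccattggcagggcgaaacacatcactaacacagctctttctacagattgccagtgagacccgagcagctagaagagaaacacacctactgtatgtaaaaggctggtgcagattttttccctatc
Neurod2: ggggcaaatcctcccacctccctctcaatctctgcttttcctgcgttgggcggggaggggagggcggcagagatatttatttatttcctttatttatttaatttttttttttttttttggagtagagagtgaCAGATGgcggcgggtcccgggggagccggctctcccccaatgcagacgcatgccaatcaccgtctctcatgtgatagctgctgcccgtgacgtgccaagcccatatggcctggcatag

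All 9 factors had a RefSeq promoter, 10 windows in all because Lhx2 has 2. CAGATG was found in 1 factor, Neurod2, against 14.4% of all 32851 promoter windows. TAATTA was found in 1 factor, Tbr1, with 2 matches, against 4.84% of all windows. CAGCTG, present in 13.0% of windows, and GGTGTGA, present in 3.33%, had no match in any of the 9. A match is a string of letters and not a binding site, and the windows leave out distal enhancers. The starts used here are those of RefSeq and can lie inside or outside the GENCODE gene span.

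The postmitotic factors Neurod6, Tbr1 and Neurod2 had the highest mean levels. Over all 8 libraries Neurod6 averaged 90.7 ± 63.2 TPM (SD, n = 8), above 92.4% of the tested genes. Tbr1 averaged 36.4 ± 24.3 TPM and Neurod2 averaged 28.9 ± 13.2 TPM. Neurod6 was above Tbr1 in 8 of 8 libraries, but Tbr1 was above Neurod2 in 4 of 8, so those neighbours could not be ranked. Lhx2 followed at 23.1 ± 13.97 TPM, with Neurod2 above it in only 6 of 8 libraries. Neurod1 was at 14.2 ± 10.9 TPM, with Lhx2 higher in 8 of 8 libraries. Fezf2 (8.54 ± 6.00 TPM), Eomes (6.35 ± 5.73 TPM) and Neurog2 (5.98 ± 7.61 TPM) formed a low group, each with an SD larger than the gaps between their means. Emx1 was lowest at 1.84 ± 2.16 TPM, above 11.3% of the tested genes.

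Reads of the pallial factors were not spread evenly over the pools: 1 control library, NX, held far less of them than every other library. It was the lowest of the 8 libraries for 8 of the 9 factors, against 17.1% of all tested genes. Relative to the mean of the other 3 control libraries, control NX held 1.47% of the Fezf2 level, 1.65% of the Neurod1 level, 5.25% of the Neurog2 level, 6.54% of the Lhx2 level and 7.76% of the Eomes level. It held 11.3% of the Tbr1 level, 12.7% of the Neurod6 level and 17.8% of the Neurod2 level. Emx1, the ninth factor, was at 0 in control NX and also in control RM and knockout RM. Control NX was also lowest for 10 of 13 tested radial glia, 12 of 20 cell cycle and 9 of 17 glutamatergic genes. The same held for 6 of 10 microglial, 4 of 7 oligodendrocyte-lineage, 1 of 2 vascular and 2 of 2 thalamic genes tested. It held for 14 of 32 other pallial transcription factors, but for 2 of 14 GABAergic and 2 of 12 intercalated-cell genes. EGFP (268.5 TPM), Tshz1 (217 TPM), Foxp2 (351 TPM), Meis2 (1051 TPM) and Gad2 (707 TPM) were highest in control NX. The part of these genes in the low pallial level of control NX was not tested. Because the sort yielded bulk RNA, fewer pallial cells and less RNA of these genes per cell cannot be told apart.

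**Figure D1:**
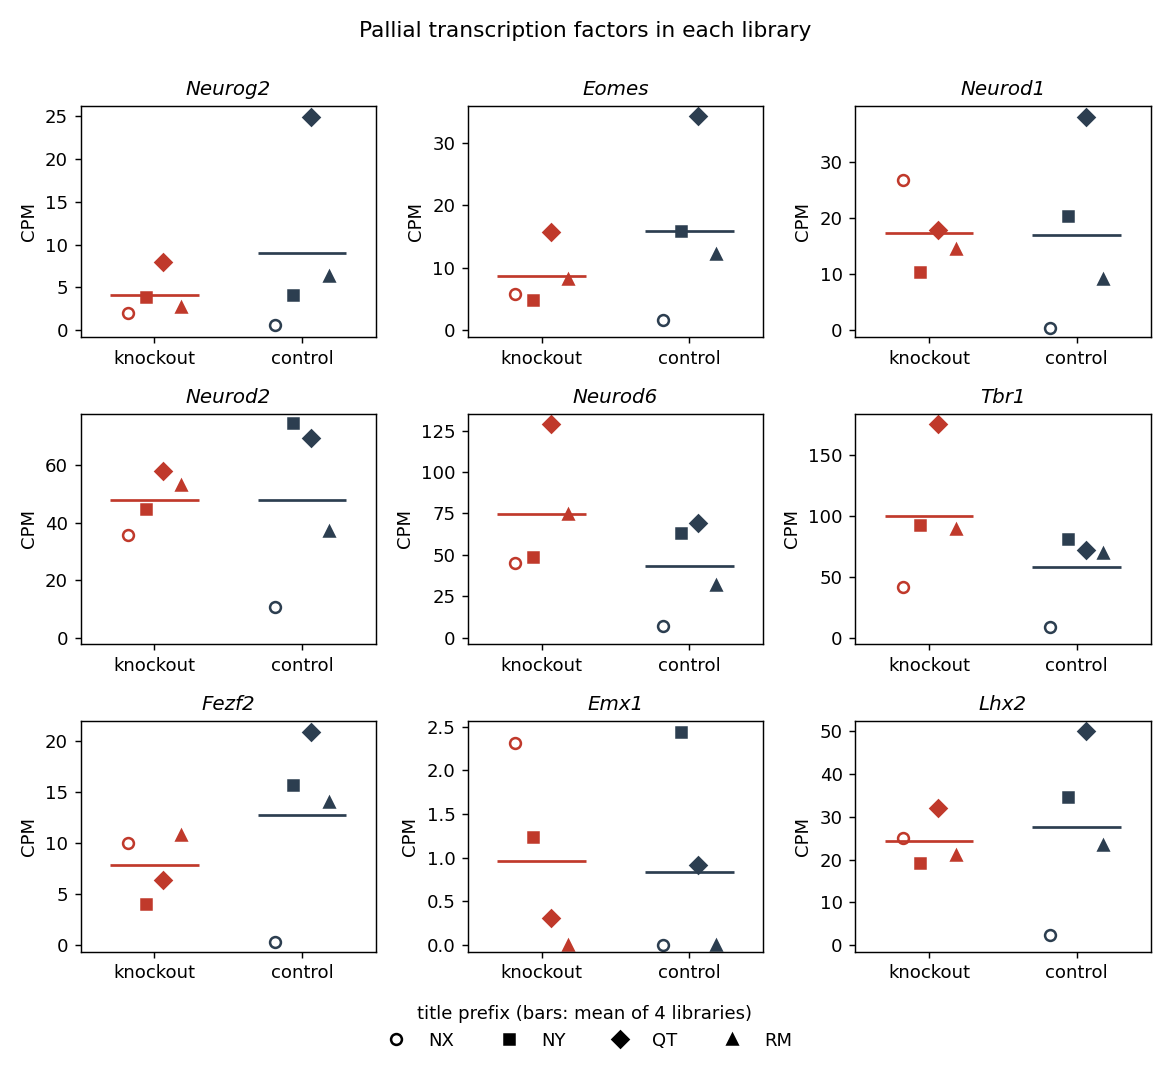
CPM of the 9 pallial factors in each library on a linear axis, knockout libraries left of control libraries, with 1 marker shape per title prefix and a bar at the mean of 4 libraries. Control NX is the lowest library for 8 of the 9 factors, and the genotypes overlap for all 9.

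Summed over the 9 factors, the knockout libraries held 219, 179, 420.1 and 147 TPM (NX, NY, QT, RM), against 30.3, 242, 354 and 136 TPM in the control libraries. Knockout QT was highest and control NX lowest, and the genotypes overlapped. The sums averaged 241 ± 123 TPM in knockout libraries and 190.5 ± 139 TPM in control libraries (SD, n = 4 each), a log2 ratio of means of 0.34. Without control NX the ratio was -0.01, and without knockout QT it was -0.07, so no direction could be read from it. Set against the summed TPM of 14 GABAergic genes, the pallial sum was 13.6%, 12.9%, 29.4% and 16.2% in knockout libraries and 1.56%, 20.8%, 19.6% and 11.3% in control libraries. The vesicular glutamate transporter Slc17a6, which loads glutamate into synaptic vesicles, was at 6.56, 5.90, 10.51 and 6.89 TPM in knockout libraries and at 0.640, 6.59, 8.19 and 8.55 TPM in control libraries. It too was lowest in control NX. Slc17a7, its cortical relative, lay at 0.240 to 1.50 TPM in knockout libraries and at 0 to 2.63 TPM in control libraries, with the 0 in control NX.

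**Figure D2:**
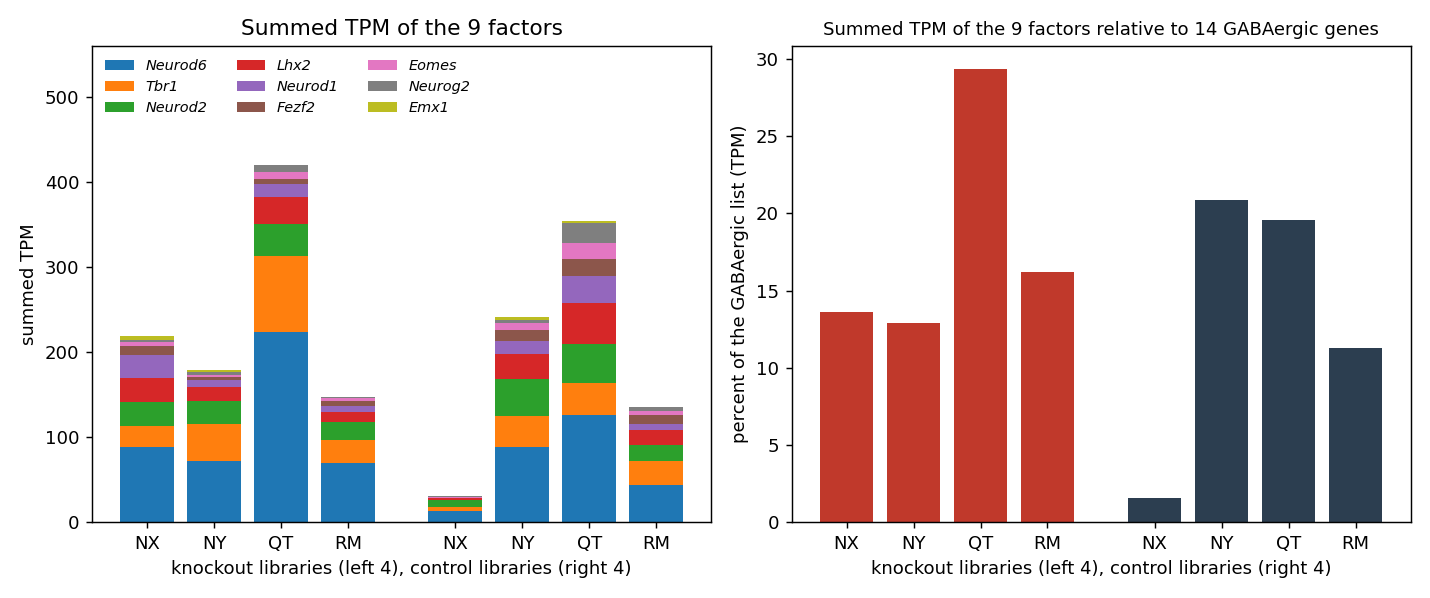
Summed TPM of the 9 pallial factors in each library, split by factor, and the same sum as a percent of the summed TPM of 14 GABAergic genes, with the knockout libraries left of the control libraries. Neurod6 makes up the largest share of every split bar. Knockout QT has the tallest of these bars at 420.1 TPM and control NX the shortest at 30.3 TPM.

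Tested one by one, no pallial factor passed the test between genotypes. By edgeR's quasi-likelihood fit, adjusted after Benjamini and Hochberg over 14157 genes, 0 of 9 factors passed an adjusted p of 0.05 (adjusted p = 0.9997 for each), against 0.0353% of all genes tested, which is 5 genes, 1 higher and 4 lower in the knockout. Before adjustment, 0 of 9 had a p under 0.05, against 3.62% of all genes. The CPM of the genotypes overlapped for 9 of 9 factors, whereas 2.59% of all genes did not overlap. Run as alternatives, limma also called 0 of the 9 and DESeq2 0 of the 8 to which it gave an adjusted p, all but Emx1. Of the factors, 4 were fitted higher and 5 lower in the knockout. Their median log2 fold change was -0.01, which is the value of Neurod2, and that over all genes rounded to -0.01 as well. The intervals were wide, so the counts do not show that the levels were equal.

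Neurog2 and Eomes had the most negative fitted fold changes, neither past the threshold. Emx1 and Lhx2, which also belong to pallial progenitors, were at 0.22 and -0.18. Neurog2, the proneural factor that starts glutamatergic neurogenesis, had 2.04, 3.89, 7.92 and 2.66 CPM (counts relative to library size) in knockout NX, NY, QT and RM, against 0.620, 4.14, 24.9 and 6.36 CPM in the control libraries. Its control values ran from the lowest to the highest of all 8 libraries, and its log2 fold change was -1.14 ± 0.83 (SE, 95% interval -2.95 to 0.67). Eomes, the T-box factor of intermediate progenitors, had 5.79, 4.89, 15.7 and 8.15 CPM in knockout libraries, against 1.61, 15.8, 34.3 and 12.2 CPM in control libraries. The knockout library was lower in 3 of the 4 prefixes and higher in NX, and the log2 fold change was -0.90 ± 0.67 (95% interval -2.36 to 0.56). These fits lean on control QT: without it Neurog2 was at 0.17 and Eomes at -0.19. Counts were small at the low end, with 10 reads for Neurog2 in control NX and 326 in control QT.

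Neurod1, which bridges late progenitors and young neurons, had 26.8, 10.4, 17.96 and 14.5 CPM in knockout libraries and 0.372, 20.4, 38.1 and 9.09 CPM in control libraries. Its means were nearly the same, 17.4 ± 6.98 CPM in knockout and 17.0 ± 16.3 CPM in control libraries (SD, n = 4 each). In control NX it rested on 6 reads. The log2 fold change was 0.03 ± 0.79, with a 95% interval of -1.68 to 1.74.

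Among the postmitotic factors, the fitted fold changes of Neurod6 and Tbr1 were positive and that of Neurod2 was close to 0. Neurod2, a bHLH factor of maturing glutamatergic neurons, had 35.7, 44.6, 58.0 and 53.2 CPM in knockout libraries and 10.8, 74.8, 69.5 and 37.1 CPM in control libraries, a log2 fold change of -0.01 ± 0.45. Neurod6, the bHLH factor also called Nex, had 45.3, 48.9, 129 and 74.5 CPM in knockout libraries and 7.01, 63.5, 69.4 and 32.0 CPM in control libraries. It was higher in the knockout in 3 of 4 prefixes, with a log2 fold change of 0.79 ± 0.55 (95% interval -0.40 to 1.98). Tbr1, the T-box factor of early-born glutamatergic neurons, had 41.2, 92.3, 175 and 88.7 CPM in knockout libraries and 8.37, 81.0, 72.2 and 69.6 CPM in control libraries.

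For Tbr1 the knockout library was the higher one in 4 of 4 prefixes, by log2 ratios of 2.30 (NX), 0.19 (NY), 1.28 (QT) and 0.35 (RM). Its values nonetheless overlapped, since knockout NX lay below 3 control libraries. The log2 fold change was 0.78 ± 0.56 (95% interval -0.43 to 1.99). Without control NX, the other control libraries differed by only 1.16-fold (74.3 ± 6.01 CPM, SD, n = 3), while knockout libraries ran from 41.2 to 175 CPM.

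The regional factors were low or spread widely. Fezf2, a zinc-finger factor of deep-layer projection neurons, had 10.01, 3.98, 6.39 and 10.8 CPM in knockout libraries and 0.248, 15.7, 20.9 and 13.99 CPM in control libraries. All 4 knockout libraries lay below control NY, QT and RM and above control NX, where Fezf2 had 4 reads. Its log2 fold change was -0.70 ± 0.78 (95% interval -2.41 to 1.00). Lhx2, a LIM-homeobox selector of cortical identity, had 25.1, 19.3, 32.0 and 21.0 CPM in knockout libraries and 2.36, 34.6, 50.04 and 23.4 CPM in control libraries, a log2 fold change of -0.18 ± 0.59. Emx1, a homeobox gene of pallial progenitors and their neurons, had 34, 15, 2 and 0 reads in knockout libraries and 0, 33, 12 and 0 reads in control libraries. The zeros allow up to 3 reads each, which is 0.186 to 0.545 CPM over the 8 libraries, and its log2 fold change of 0.22 ± 1.27 spans both directions widely.

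**Figure D3:**
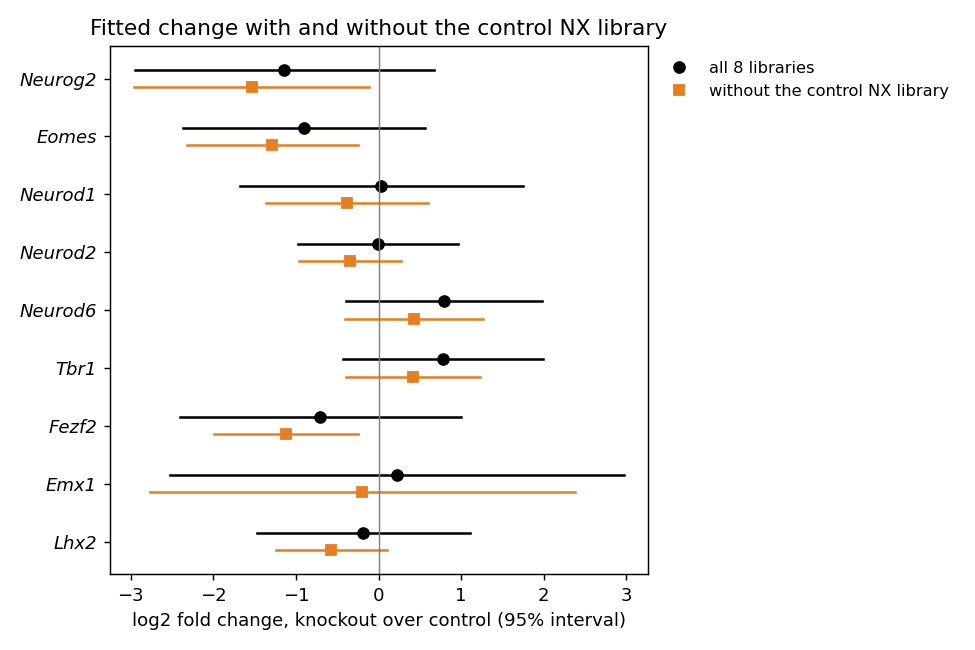
Log2 fold change, knockout over control, of each pallial factor with its 95% interval from edgeR's quasi-likelihood fit, over all 8 libraries and without control NX. Every interval over 8 libraries crosses 0. Without control NX those of Neurog2, Eomes and Fezf2 lie below 0 before adjustment over all genes. That library was left out because it held the least of these factors, so the downward shift was built in.

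How far these estimates rest on control NX was seen by leaving it out. Control NX was singled out because it held the least of these same factors. Lower fold changes without it were thus built in, and the p-values of that fit give no support for a difference. Without control NX, 7 of the 9 factors were fitted lower in the knockout and their median log2 fold change was -0.38, against 0.01 over all genes. Neurog2 was at -1.54 ± 0.65 (unadjusted p = 0.0362), Eomes at -1.29 ± 0.48 (unadjusted p = 0.0189) and Fezf2 at -1.12 ± 0.40 (unadjusted p = 0.0162), all with adjusted p = 0.994 in edgeR's test over 14527 genes. That fit gave 3.85% of all genes an unadjusted p under 0.05 and called 0 of them. Neurod6 (0.43 ± 0.38) and Tbr1 (0.42 ± 0.37) kept their positive sign. Leaving out any other single library gave 0 of the 9 factors an unadjusted p under 0.05 in edgeR's test. Two-sided exact permutation tests on the mean log2 CPM of all 8 libraries gave unadjusted p between 0.257 (Neurod6) and 1.00 (Fezf2), where 4 against 4 allows no p below 0.0286. On that scale Neurog2 differed by -0.36, Eomes by -0.40, Fezf2 by 0.15, Lhx2 by 0.42 and Neurod1 by 1.05, all knockout minus control.

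Ratios of 1 factor to another within a library remove whatever scales all factors alike in that library. Of the 28 pairs among the 8 factors detected in every library, 3 pairs did not overlap between genotypes, 10.7%, against 2.72% of all pairs among the tested genes that were above 0 TPM in every library. The pairs share genes and were picked after their values were seen, so no test is given. Eomes relative to Tbr1 was 0.151, 0.0566, 0.0981 and 0.107 in knockout libraries, against 0.209, 0.212, 0.512 and 0.188 in control libraries (TPM ratios), a mean difference of -1.39 on the log2 scale. Eomes relative to Neurod6 was 0.0424, 0.0344, 0.0392 and 0.0409 in knockout libraries, against 0.0761, 0.0888, 0.150 and 0.119 in control libraries, a mean log2 difference of -1.42. The intermediate-progenitor factor was thus lower relative to Tbr1 and to Neurod6 in all 4 knockout libraries than in any control library. Relative to Neurod2, the third postmitotic factor, Eomes overlapped between genotypes, at 0.135, 0.0910, 0.229 and 0.138 in knockout libraries and 0.126, 0.179, 0.411 and 0.272 in control libraries, a mean log2 difference of -0.68. Neurog2 relative to Tbr1 was 0.0936, 0.0776, 0.0853 and 0.0562 in knockout libraries, against 0.137, 0.0945, 0.650 and 0.173 in control libraries, so that these groups were just apart (0.0936 against 0.0945).

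Control NX did not stand apart in the 3 ratios without overlap, unlike in the levels. It did in other ratios. Eomes to Neurod1 was 2.83 in control NX and 0.139 to 0.709 in the other libraries. Neurod2 to Fezf2 was 31.4 in control NX and 1.87 to 8.22 in the others. Without control NX the Eomes to Tbr1 difference was -1.49, and over all 8 libraries left out in turn it lay between -1.60 and -1.06. On CPM instead of TPM 4 pairs did not overlap, with all 3 TPM pairs among them, but the share over all pairs of genes was not computed on CPM. Beside these ratios, the summed level of the cell cycle genes was 273 to 1304 TPM in knockout libraries and 252 to 778 TPM in control libraries. Of these genes 19 of 20 were fitted higher in the knockout, against 49.4% of all genes tested, and 12 of 20 were lowest in control NX. Their median log2 fold change was 0.93, and 0 were called by edgeR (1 had an unadjusted p under 0.05). Radial glia genes summed to 593 to 1757 TPM in knockout libraries and 199 to 1806 TPM in control libraries. Their part in the ratios was not tested.

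**Figure D4:**
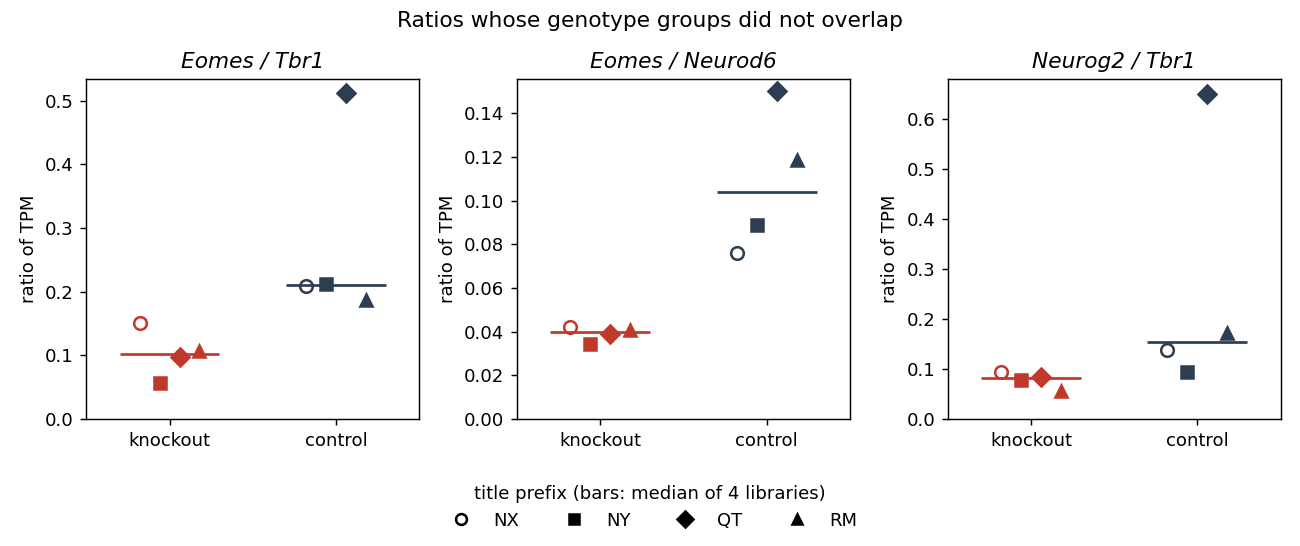
Ratio of 1 pallial factor to another in TPM within each library, for the 3 pairs whose genotypes did not overlap, on linear axes from 0 with knockout libraries left of control libraries. Each knockout ratio lies below each control ratio, and control QT is the highest point for Eomes to Tbr1 at 0.512 and for Neurog2 to Tbr1 at 0.650.

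The factors went up and down together over the libraries, and less so without control NX. Over 8 libraries the Pearson r of log2 CPM was positive for 36 of 36 pairs of factors, with a median of 0.80 (0.24 to 0.98). By exact permutation over 40320 pairings and Benjamini-Hochberg adjustment over the 36 pairs, 13 pairs passed 0.05 by Pearson's r and 0 by Spearman's rho on log2 CPM. Without control NX the median r was 0.39 and 28 of 36 pairs were positive. With the 2 libraries farthest from the median left out, the median was 0.27. Taken as deviations from the genotype means, 26 pairs passed by Pearson's r and 12 by Spearman's rho, and the median r was 0.88, or 0.64 without control NX. On log2(TPM + 1) 16 pairs passed by Pearson's r and 12 by Spearman's rho, and the median r was 0.77, or 0.56 without control NX. On each of these scales 34 of 36 pairs were positive without control NX. How far the correlations rest on that library thus differed between scales.

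Some pairs kept a high r without control NX. Eomes and Lhx2 had r = 0.90 and rho = 0.93 (exact p = 0.000521 for r and 0.00223 for rho, adjusted p = 0.0187 and 0.0771), and r = 0.80 without the 2 libraries farthest from the Eomes median. Neurog2 and Eomes, neighbours in the lineage, had r = 0.93, and 0.87 without control NX. Neurod6 and Tbr1, both postmitotic, had r = 0.95, and 0.75 without it. Tbr1 and Fezf2 went the other way, with r = 0.74 over 8 libraries and -0.41 without control NX.

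**Figure D5:**
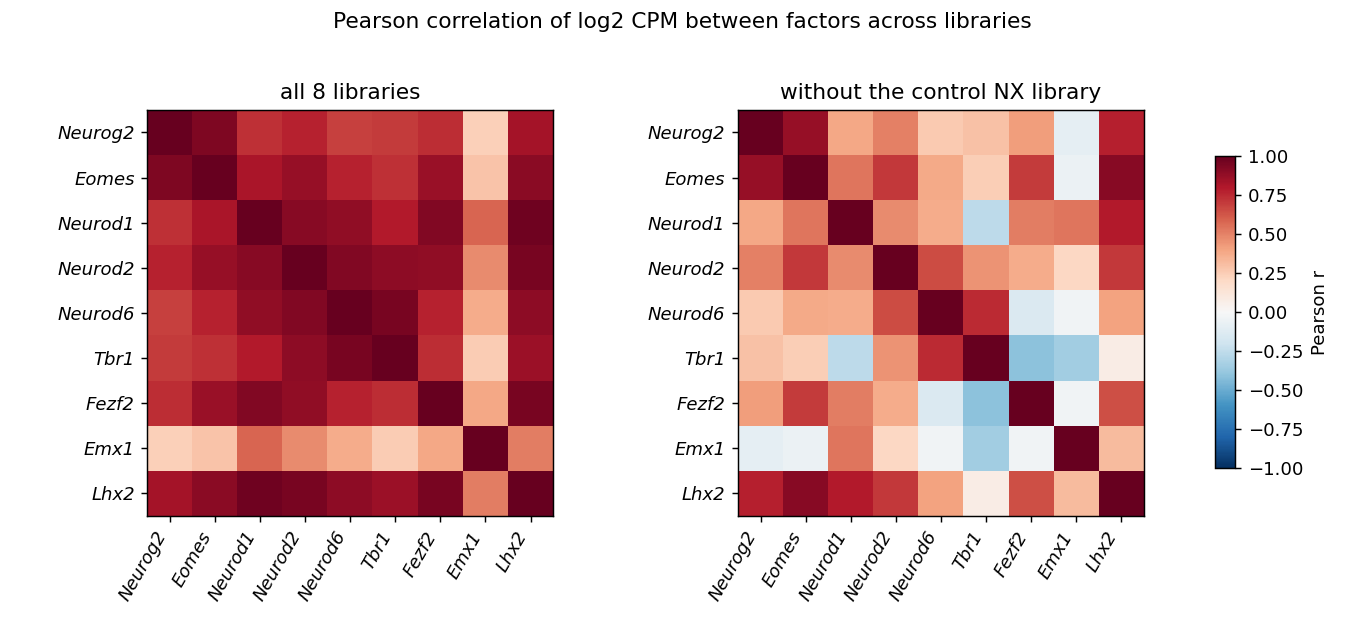
Pearson r of log2 CPM between each pair of pallial factors over all 8 libraries and over the 7 libraries without control NX, coloured on one scale. With all libraries 36 of 36 pairs are positive; without control NX 28 of 36 are.

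By likeness to the mean log2 CPM of Neurod2, Neurod6 and Tbr1 over the 8 libraries, the 10 nearest of 9353 genes with enough reads were Pam (r = 0.98), Heatr5a (0.98), Nhsl1 (0.97), Tead2 (0.97), Stx4a (0.96), Gtdc1 (0.96), Myo10 (0.96), Srgap3 (0.96), Ccnd1 (0.96) and Adi1 (0.96). None of the 10 stands on the marker lists. Pam amidates neuropeptides, Tead2 is a transcription factor of the Hippo pathway and Ccnd1 encodes a cyclin of the cell cycle. The r of Adi1 was 0.69 without control NX. In TPM Srgap3 was not low in control NX, at 197 TPM against a control mean of 185 ± 24.7 TPM (SD). The median r over the 9353 genes was -0.08, and 48 genes exceeded 0.9. By list, the median r was 0.66 for other pallial transcription factors (0.46 without control NX), 0.80 for cell cycle genes (0.69 without it) and 0.73 for radial glia genes (0.15 without it). It was 0.39 for glutamatergic genes (-0.08 without control NX), 0.68 for oligodendrocyte-lineage genes (0.21), 0.50 for microglial genes (-0.16), 0.66 for the 2 vascular genes tested (0.35) and 0.82 for the 2 thalamic genes tested (0.37). GABAergic genes had a median of -0.05 (0.21 without control NX) and intercalated-cell genes one of -0.41 (0.11 without it). All points share their libraries and depth, so these are descriptions.

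Of 38 other pallial transcription factors and cofactors, 32 were tested, 17 were fitted higher and 15 lower in the knockout, and 1 was called. The 1 called was Tle4, a Groucho-family corepressor used in deep-layer cortical neurons and in other cell types, which fell to 35.2, 26.4, 46.9 and 20.8 TPM in knockout libraries, against 186, 82.0, 124 and 80.3 TPM in control libraries, a log2 fold change of -1.89 ± 0.25 (edgeR adjusted p = 0.0388). Its groups did not overlap, and control NX was its highest library. Leaving out any library but control NY ended the call (adjusted p between 0.0562 and 0.166 in edgeR's test), at log2 fold changes of -2.04 to -1.68. The median of the list was 0.01. Sox5, an SRY-box factor of deep-layer neurons, had 45.8, 38.2, 69.4 and 46.8 TPM in knockout libraries, against 10.4, 28.1, 30.6 and 25.7 TPM in control libraries. Its groups did not overlap but it missed the threshold, with a log2 fold change of 0.98 ± 0.30. Foxp1 (0.74 ± 0.24) and Zbtb18 (0.93 ± 0.43) were also fitted higher without passing. The Foxp1 change depended on the scale: on log2(TPM + 1) it was 0.10 by limma, where that of Zbtb18 was 0.85.

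Of 19 further glutamatergic genes 17 were tested, 7 fitted higher and 10 lower, at a median of -0.09 on the log2 scale and with 0 called (before adjustment, 1 passed 0.05 upwards and 1 downwards). Lmo3, a LIM-only cofactor, had 103, 71.5, 95.7 and 78.2 TPM in knockout libraries and 31.4, 48.7, 40.9 and 44.9 TPM in control libraries, with a log2 fold change of 1.12 ± 0.26 and an edgeR adjusted p of 0.382, against an adjusted p of 0.0278 with DESeq2. Slc1a1, a neuronal glutamate transporter, was at -0.75 ± 0.30, Camk2a at -0.64 ± 0.40 and Nrn1 at -0.63 ± 0.46, none past the threshold. Among 14 GABAergic genes 4 were fitted higher and 10 lower, with a median of -0.09 and 0 called. Among 12 intercalated-cell genes 3 were fitted higher and 9 lower, with a median of -0.37, and the targeted Tshz1 was the 1 called, lower in the knockout (log2 fold change -2.27 ± 0.30, adjusted p = 0.0388 by edgeR).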

How the data were processed

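Libraries were made from double-stranded, amplified cDNA of sorted pools, per the labels' protocols. Per the submitters' processing notes, the tools were Trimmomatic 0.33, Bowtie2 (version not given in the sources used here) and RSEM 1.2.22, and the mm10 assembly of the mouse genome was named; the gene annotation is not given in the sources used here. The authors deposited RSEM expected counts and TPM per gene. FPKM values, deposited alongside by the authors, were not used. The deposited matrices equalled the files per library in all 16 columns compared. Amplification before sequencing without molecular identifiers means that read counts are not independent molecules, and limits from 0 counts cover counting error only.

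After rounding the expected counts to integers, genes were filtered with filterByExpr, scaled with TMM and tested with edgeR 4.0.16 (R 4.3.3) in a model with genotype as the single term, with Benjamini-Hochberg adjustment over 14157 genes and a threshold of 0.05. The script was tested on simulated counts. CPM values are scaled by TMM, and log2 CPM used a prior count of 2. Alternatives used DESeq2 1.42.0, limma 3.58.1, other scalings, pseudocounts of 1 and 0.1 on TPM, no filter, the title prefix as a block, and fewer libraries. Single values were tested by exact permutation. Tables and plots used Python 3.11.15, numpy 2.4.6, pandas 2.3.3 and matplotlib 3.10.9.

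The factors and all gene lists were chosen with earlier results of these data known. Genes outside the 9 were named by rule: up to 4 of a list with the smallest unadjusted p, or those called, and the 10 most alike in pattern among genes with a mean log2 CPM of at least 3. Ratios between factors, and list correlations without control NX, were added after the values were seen. A total of 3 counts was taken as the limit for a count of 0. Positions came from GENCODE M21 (GRCm38) and promoter sequences from RefSeq (GRCm38.p6), with windows of 250 bases. Some named results are not reported here.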

Additional observations from a re-analysis of the deposited data

Results flagged for a closer look

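In 42 groups of 4 libraries, 5 held a library whose gap to its nearest neighbour was large against the range of the group (Dixon's criterion), where chance gives about 5% of groups. The groups are not independent, since each factor was looked at on CPM and on log2 CPM and the 2 flagged ratios share Tbr1. The count of 5 is therefore not read against that share. The control NX library was low for Tbr1, at 8.37 CPM and at 3.10 on the log2 CPM scale, and for Fezf2, at -1.22 on the log2 CPM scale, where the other 3 control libraries lay between 69.6 and 81.0 CPM for Tbr1. The control QT library was high for 2 ratios of TPM, at 0.512 for Eomes to Tbr1 and at 0.650 for Neurog2 to Tbr1. It also held the highest Neurog2 and Eomes levels of all 8 libraries, at 24.9 and 34.3 CPM.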

How the results depend on the processing

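None of the 9 pallial factors was called under any of the 20 alternatives (Emx1 was not tested in 2 of them and had no adjusted p with DESeq2). Eomes was fitted lower in 20 of 20 (-1.36 to -0.19), Neurod6 higher in 20 of 20 (0.38 to 1.2) and Tbr1 higher in 20 of 20 (0.36 to 1.08). Genes called, 5 as reported, were 9 with no composition factors, 19 with no filter, 39 with DESeq2, 2 with limma-voom, 10 on log2(TPM + 1), 3 without both NX libraries, 0 without both NY, both QT or both RM libraries, and 0 to 5 with single libraries left out. With the prefix as a replicate block 28 genes were called, the 5 among them, and 2 of the 9 factors had an unadjusted p under 0.05, Tbr1 at 1.00 (edgeR adjusted p = 0.392) and Neurod6 at 1.08 (adjusted p = 0.526). Same-prefix libraries correlated in their deviations at 0.38 (NX), 0.30 (NY), 0.07 (QT) and 0.45 (RM). Knockout NX, NY and RM each correlated best with the control of their own prefix. Knockout QT correlated about as weakly with control QT (0.066) as with control RM (0.072). A shared prefix effect is thus possible, but the labels do not say that the prefix pairs libraries, so the main fit left it out. Factors fitted higher numbered 4 as reported, 7 with limma-voom and on log2(TPM + 0.1), 2 without both NX libraries, and 2 to 7 with single libraries left out. Tle4 and Tshz1 were fitted lower in 20 of 20 and lost their call in 13 and 10 of them; Tshz1 lost it without any single library but knockout NX or control NY.

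Signs turned for factors near 0 or with wide intervals, and the cause was not tested. Neurod2 was at 0.01 with DESeq2 size factors (0.00713) and with DESeq2 (0.00875), 0.28 with the block, 0.30 with limma-voom, 0.22 and 0.25 on log2(TPM + 1) and log2(TPM + 0.1), 0.32 without both NY and 0.12 without both QT libraries, and -0.34 to 0.29 with single libraries left out. Lhx2 was at 0.23 with the block, 0.56 with limma-voom, 0.28 and 0.36 on the TPM scales, 0.044 without both NY and 0.12 without both QT libraries, and -0.57 to 0.28 with single libraries left out. Neurod1 was at -0.67 without both NX and -0.087 without both RM libraries, and -0.38 to 0.81 with single libraries left out. Fezf2 was at 0.60 with limma-voom and 0.14 on log2(TPM + 0.1), and its mean log2 level differed by -0.17 on log2(TPM + 1), against 0.15 on log2 CPM. With single libraries left out Neurog2 ran over -1.65 to 0.17 (0.17 without control QT) and Emx1 over -0.63 to 1.59. Correlated pairs by Pearson's r numbered 26 on deviations from the genotype means, against 13. Ratio pairs without overlap numbered 3 as reported and 4 to 8 with single libraries left out. Leaving a library out can only keep or raise this count, so the rise is no support for a difference. The share over all pairs of genes was not computed for these smaller sets. The log2 ratio of summed TPM ran over -0.07 to 0.83. Small counts limit Emx1, Fezf2, Neurod1 and Neurog2 most, since their lowest libraries held 0, 4, 6 and 10 reads. For Fezf2, Neurod1 and Neurog2 that library was control NX, which had the largest summed expected counts of all libraries, 14535867.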

Other observations

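Genes of the other cell classes that the sort could hold showed no call between genotypes. Of 13 radial glia genes tested, 5 had a positive and 8 a negative fold change (median -0.07), with Sox9, a factor of glial progenitors, at 57.7 ± 13.2 CPM in knockout and 24.8 ± 15.4 CPM in control libraries (SD, n = 4 each). Oligodendrocyte-lineage genes were fitted higher for 3 of 7 and lower for 4 (median -0.16). Sox9 did not overlap between genotypes and did not pass the adjusted threshold in edgeR's test. Microglial genes were fitted lower for 10 of 10 tested (median -1.05), with a summed level of 28.7 to 118 TPM in knockout and 12.3 to 203 TPM in control libraries. Only 2 of 10 vascular and 2 of 10 thalamic genes had enough reads to be tested. The vascular pair was fitted lower (median -1.28) and the thalamic pair higher (median 0.78), with 0 called in each of these lists.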
